A study of Mus musculus with 6 samples.

Results

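Mitophagy receptors and core autophagy genes were examined in fetal liver of mouse embryos without tropomodulin 3, the protein that caps the slow-growing ends of actin filaments. The set was given as 10 gene symbols, and all 10 were found among the 19938 genes measured, through 14 probe sets that carry exactly 1 gene symbol. For each gene the probe set with the highest mean over the 6 arrays was used. The genes compared were the mitophagy receptors Bnip3, Bnip3l and Fundc1, the mitochondrial damage kinase Pink1, the initiating kinase Ulk1, the ATG8-family genes Map1lc3a, Map1lc3b, Gabarapl1 and Gabarapl2, and the cargo adaptor Sqstm1.

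Livers were taken at stage E14.5 (mid-gestation) from 3 Tmod3-/- embryos (KO), which the submitters record as anemic with a small liver, and from 3 Tmod3+/+ embryos (WT) recorded as normal. All were C57BL/6J and independent embryos, and each total RNA went onto 1 MoGene 1.0 ST array, so every value is a log2 level over whole liver. How the Tmod3 allele was made was not stated in any source used here. Tmod3 itself read 1.32, 2.36 and 1.30 on the KO arrays and 4.49, 4.78 and 4.90 on the WT arrays. Array medians over all probe sets were 1.36 to 1.43, and a level near them is close to the floor of the measurement. Of 19938 genes, 3 passed (limma, Benjamini-Hochberg adjusted p under 0.05), which is 0.0150%, and all 3 were lower in KO. Tmod3 itself was among these 3 (limma adjusted p = 0.0225). With 3 arrays per group, precision is limited throughout.

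Mitophagy is the removal of mitochondria by autophagy, in which a double membrane closes around the cargo and fuses with the lysosome. Receptors on the outer mitochondrial membrane, among them BNIP3, BNIP3L (also called NIX) and FUNDC1, bind ATG8-family proteins on that membrane. Bnip3 is a textbook target of the hypoxia-inducible factors, whereas Bnip3l is best known for the clearance of mitochondria from maturing red cells, which form in the liver at this stage. PINK1 marks damaged mitochondria by another route, together with the ubiquitin ligase parkin.

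The promoter windows of the members are shown first, because Bnip3 is known to respond to low oxygen. RefSeq windows on GRCm38.p6, from 250 bases before to 50 bases after a transcription start, were held for 8 of the 10 members, all but Bnip3l and Map1lc3a. They were searched on both strands for the core letters bound by hypoxia-inducible factors (ACGTG or GCGTG) and for a GATA motif (AGATAA or TGATAA), with overlapping matches merged into 1 site. The first window below is that of Bnip3 (chr7:138909457-138909756, minus strand), the second that of Map1lc3b (chr8:121590188-121590487, plus strand) and the last that of Fundc1 (chrX:17571958-17572257, minus strand). They show the receptor that was higher in KO, the member with the most sites, and the receptor that was lower in KO. Capitals mark the hypoxia-inducible factor core letters.
Bnip3: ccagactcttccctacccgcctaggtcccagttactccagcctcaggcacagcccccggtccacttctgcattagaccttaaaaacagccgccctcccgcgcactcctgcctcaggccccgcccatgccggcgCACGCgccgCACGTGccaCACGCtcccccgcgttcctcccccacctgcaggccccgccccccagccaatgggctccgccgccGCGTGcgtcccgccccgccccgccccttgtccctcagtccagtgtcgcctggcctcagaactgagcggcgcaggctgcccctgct
Map1lc3b: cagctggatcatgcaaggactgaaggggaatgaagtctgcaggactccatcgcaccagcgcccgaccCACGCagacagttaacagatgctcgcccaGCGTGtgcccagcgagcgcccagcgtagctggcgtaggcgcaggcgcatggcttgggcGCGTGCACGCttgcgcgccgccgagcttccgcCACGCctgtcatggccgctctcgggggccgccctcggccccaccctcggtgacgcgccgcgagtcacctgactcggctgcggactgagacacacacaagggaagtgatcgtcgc
Fundc1: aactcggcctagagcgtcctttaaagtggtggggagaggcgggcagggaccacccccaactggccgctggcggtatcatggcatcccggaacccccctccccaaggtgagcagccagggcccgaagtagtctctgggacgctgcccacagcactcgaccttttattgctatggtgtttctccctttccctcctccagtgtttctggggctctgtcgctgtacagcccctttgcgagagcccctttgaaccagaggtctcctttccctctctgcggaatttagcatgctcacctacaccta

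The Bnip3 window held 4 core sites, starting at -117, -108, -99 and -35 from the transcription start. The site at -108 read CACGTG, which matches on both strands and is also the letters of an E-box. At least 4 sites were present in 2.44% of the 32851 windows of all genes, and at least 1 in 43.8%. Map1lc3b held 5 sites, a number reached by 0.767% of windows. Pink1, Ulk1 and Gabarapl2 held 1 each, and Fundc1, Gabarapl1 and Sqstm1 held 0. A GATA motif was found in 1 of the 8 windows, that of Pink1 at -184, against 18.6% of all windows. The number of sites did not sort the members by their difference between genotypes: Map1lc3b, with 5 sites, differed by -0.16 on the log2 scale, and Bnip3, with 4, by +1.43. The letters are a description of the sequence and not measured binding.

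Bnip3, which encodes a mitochondrial receptor of mitophagy, was the member with the largest difference between genotypes. It read 5.63, 6.76 and 5.31 on the KO arrays and 4.37, 4.39 and 4.65 on the WT arrays. Every KO array lay above every WT array, with KO replicate 2 more than a log2 unit above the other KO arrays and the WT arrays close together. The means were 5.90 ± 0.76 in KO and 4.47 ± 0.16 in WT (SD, n = 3 each), a 2.70-fold difference. The log2 difference was +1.43 with a standard error of 0.33 and a 95% interval of 0.68 to 2.18. It did not pass over all genes (limma adjusted p = 0.261, unadjusted p = 0.00227), and it was +1.0 without KO replicate 2. Genes of like level (5 to 6) had a median difference of -0.28. Because whole liver was measured, a change in the share of cells that carry a transcript and a change in its amount per cell cannot be told apart.

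A second, less bright probe set is assigned to Bnip3 under the same 3 accessions. It read 5.23, 6.45 and 5.35 in KO and 3.05, 4.03 and 4.56 in WT, again without overlap, and its log2 difference was +1.80 with a standard error of 0.43. Both probe sets placed KO above WT. The sources used here do not say where either lies in the genome or whether one of them detects a processed copy, so the second is not an independent measurement.

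Bnip3l, the receptor known for the loss of mitochondria in reticulocytes, differed between genotypes by less than the spread within either group. It read 7.33, 7.70 and 6.94 on the KO arrays and 7.23, 7.72 and 7.77 on the WT arrays. The groups overlapped, since KO replicate 2 lay just below the upper pair of WT arrays and WT replicate 1 lay below KO replicate 1. The means were 7.32 ± 0.38 in KO and 7.57 ± 0.30 in WT (SD, n = 3 each). KO minus WT was -0.25 (standard error 0.21, 95% interval -0.74 to 0.24, limma adjusted p = 0.800). Changes of either sign within that interval are therefore compatible with these arrays. Genes with a mean level of 7 to 8 had a median difference of -0.22, so Bnip3l lay close to genes of like level. Without KO replicate 3, the lowest array, the difference was -0.059. Its other probe set, under the same 5 accessions, gave -0.22 with a standard error of 0.18 and KO arrays at 7.15, 7.24 and 6.73. A processed copy, Bnip3l-ps, is listed as a pseudogene in RefSeq, and the sources used here do not say whether either probe set also detects it.

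The difference between both receptors was taken within each array, so that a shift equal at all levels of an array cancels. An array effect that depends on level does not cancel. Bnip3 minus Bnip3l was -1.70, -0.94 and -1.63 in KO and -2.87, -3.33 and -3.11 in WT. Every KO array lay above every WT array. The mean was -1.42 ± 0.42 in KO and -3.10 ± 0.23 in WT (SD, n = 3 each), so that the ratio of Bnip3 to Bnip3l was 3.21-fold higher in KO, a log2 difference of +1.68. The two-sided exact permutation test gave p = 0.1, the smallest that 3 against 3 arrays allow. All 4 combinations of the probe sets of these genes separated the groups, with differences of +1.65 to +2.05. After renewed quantile normalization the difference of the brighter probe sets was +1.84. A change in this ratio shows that the signals of the pair moved unequally; it compares no absolute levels, because each probe set has its own response.

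**Figure D1:**
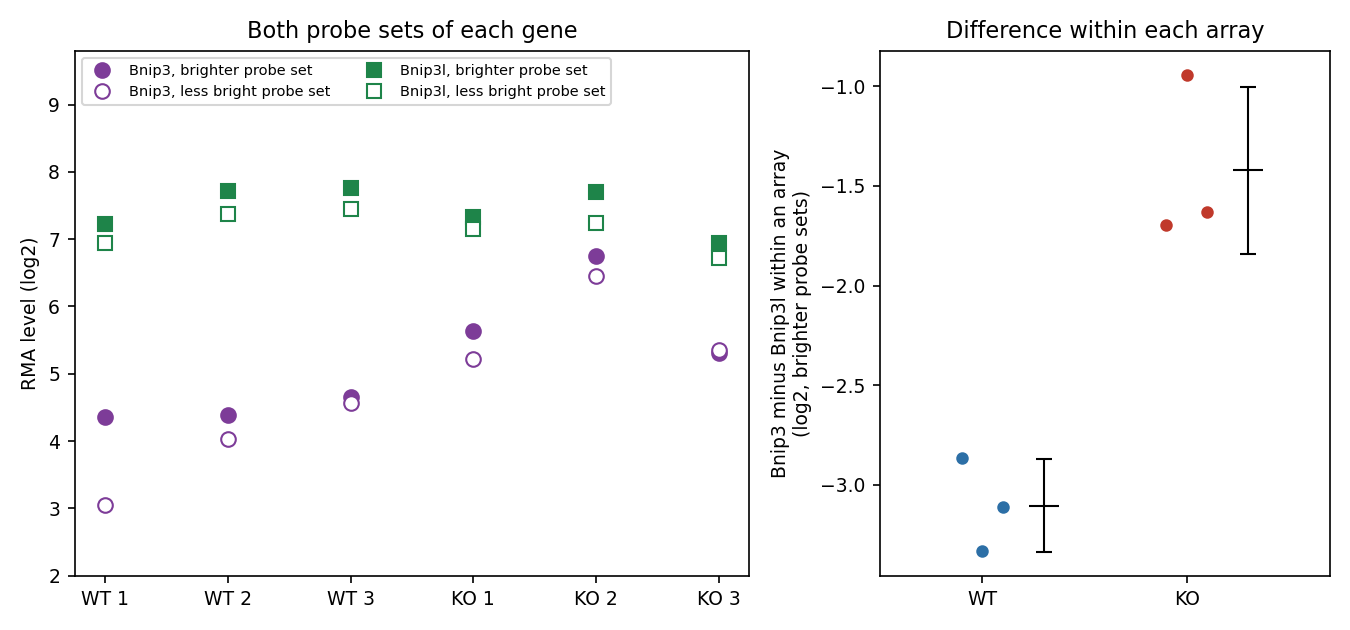
The left panel plots the log2 RMA level (y axis) of both probe sets of Bnip3 (circles) and of Bnip3l (squares) on each array (x axis), and the right panel the within-array difference of the brighter probe sets, with black bars for the mean ± SD of 3 arrays. Bnip3 lies higher on the KO arrays with both probe sets, Bnip3l does not separate the groups, and the difference averages -1.42 in KO and -3.10 in WT.

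Fundc1, which encodes an outer membrane receptor of mitophagy, was the member with the smallest p and lay in the opposite direction to Bnip3. It read 2.63, 2.58 and 2.70 on the KO arrays and 3.09, 3.15 and 3.42 on the WT arrays. The KO arrays lay close together and all below the WT arrays. The means were 2.64 ± 0.057 and 3.22 ± 0.18 (SD, n = 3 each), a 1.5-fold lower level in KO. The log2 difference was -0.59 with a standard error of 0.12 and a 95% interval of -0.86 to -0.31, which did not pass over all genes (limma adjusted p = 0.202, unadjusted p = 0.00105). Genes with a level of 2 to 3 had a median difference of -0.13. After the arrays were quantile normalized again, the Fundc1 difference was -0.41 and the groups still did not overlap.

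Pink1, the kinase that accumulates on depolarised mitochondria, was near the floor. It read 1.66, 1.47 and 1.45 in KO and 1.47, 1.58 and 1.35 in WT, with overlapping groups. KO and WT differed by +0.060 on the log2 scale, with a 95% interval of -0.20 to 0.32, and at such a level neither a presence nor a loss of the transcript was detectable.

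Ulk1, the kinase that starts autophagosome formation, was also dim. It read 1.94, 1.47 and 1.38 in KO and 1.85, 2.22 and 1.76 in WT. The groups overlapped through KO replicate 1, which lay above WT replicates 1 and 3. KO minus WT was -0.34 on the log2 scale, with a standard error of 0.18 and a 95% interval of -0.76 to 0.073 (limma adjusted p = 0.650).

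The ATG8-family members, small ubiquitin-like proteins that are attached to the autophagosome membrane and bind the receptors, were not separated as a family. Of the 4 members, Map1lc3b and Gabarapl2 had negative differences, and Map1lc3a and Gabarapl1, both near the floor, had small positive ones. The related gene Gabarap, of the ATG8 conjugation list and named after its value was seen, read 5.64, 5.37 and 4.81 in KO and 5.34, 5.82 and 6.37 in WT, with overlapping groups and a difference of -0.57 (limma adjusted p = 0.619). Map1lc3b, one of the LC3 genes, read 3.67, 3.82 and 2.95 in KO and 3.05, 3.54 and 4.31 in WT. Both groups were wide and overlapped, with the highest and second lowest of the 6 values both in WT. The log2 difference was -0.16 with a 95% interval of -0.92 to 0.61. It turned to +0.072 after renewed quantile normalization, to +0.18 without WT replicate 3 and to +0.11 without KO replicate 3. Its other probe set shared 6 of 7 accessions, gave -0.21, and again had its highest value (4.53) on WT replicate 3. Whether either also detects a processed copy is likewise not stated.

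Gabarapl2, of the GABARAP branch, read 2.44, 2.38 and 2.51 in KO and 2.57, 2.75 and 3.44 in WT. The groups did not overlap, but KO replicate 3 and WT replicate 1 lay close together and WT replicate 3 stood well above the rest. KO minus WT was -0.48 (standard error 0.21, limma adjusted p = 0.552, unadjusted p = 0.0495). It was -0.22 without WT replicate 3, and the groups overlapped after renewed quantile normalization (-0.32). The other Gabarapl2 probe set, annotated with 1 accession in place of 6, read 1.86, 1.19 and 1.80 in KO and 1.67, 1.22 and 1.53 in WT, a difference of +0.14 near the floor. The pair thus disagreed in sign, and RefSeq lists a pseudogene, Gabarapl2-ps, so the Gabarapl2 value is uncertain.

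Map1lc3a, the other LC3 gene, read 1.75, 1.54 and 1.64 in KO and 1.80, 1.40 and 1.57 in WT, and its groups overlapped. Its difference was +0.052 with a 95% interval of -0.24 to 0.35. Gabarapl1 read 1.68, 1.81 and 1.95 in KO and 1.66, 1.54 and 1.75 in WT, where only KO replicate 1 fell within the WT range. Its difference was +0.17 with an interval of -0.097 to 0.43. Neither gene passed (limma adjusted p = 0.941 and 0.744).

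Sqstm1 encodes the adaptor that binds ubiquitin-tagged cargo and ATG8 proteins and is itself degraded with the cargo. It read 2.81, 3.30 and 2.56 on the KO arrays and 2.42, 2.63 and 2.69 on the WT arrays. KO replicates 1 and 2 lay above every WT array, and KO replicate 3 lay within the WT range. This amounted to +0.31 on the log2 scale, with a 95% interval of -0.12 to 0.74 (limma adjusted p = 0.705). After renewed quantile normalization it was +0.45, every KO array lay above every WT array, and it still did not pass (adjusted p = 0.523).

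**Figure D2:**
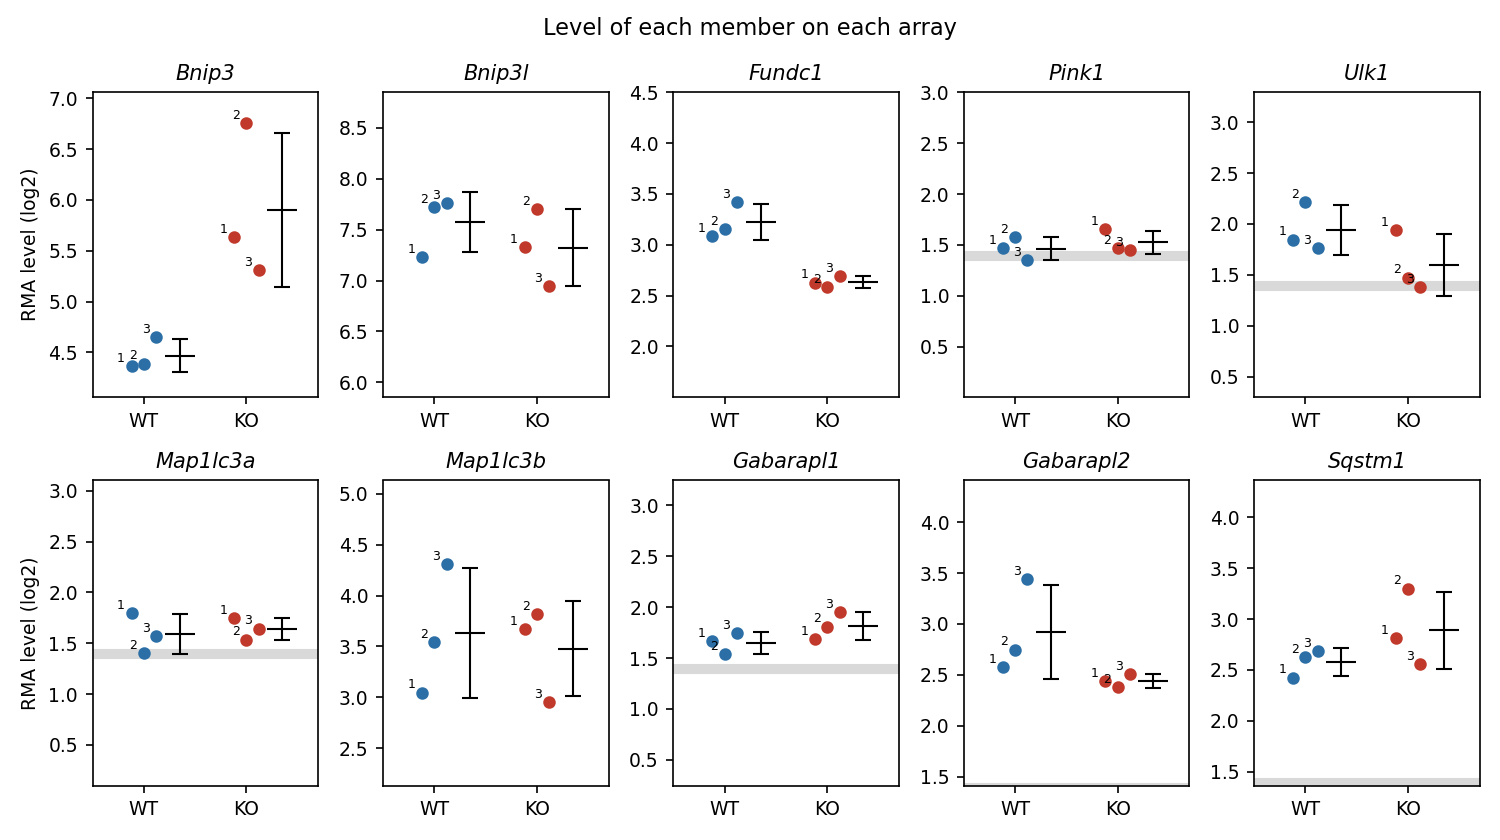
Each panel plots the log2 RMA level (y axis, a range of 3 units in every panel) of 1 member on the WT (blue) and KO (red) arrays, numbered by replicate, with black bars for the mean ± SD of 3 arrays and a grey band for the array medians of 1.36 to 1.43. Bnip3 lies higher in KO, Fundc1 and Gabarapl2 lie lower, and the groups of the other 7 members overlap.

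Over the 10 members, 5 had a positive and 5 a negative difference, with a median of -0.051, where all genes had a median of 0.0057. The sign of the members' median was not stable: it was +0.029 after renewed quantile normalization, +0.074 without KO replicate 3, +0.022 without WT replicate 3, +0.056 with the less bright probe sets and -0.17 without WT replicate 1. With limma, 0 of 10 passed over all genes, as against 0.0150% of all genes. At an unadjusted p under 0.05, 1 member was higher (Bnip3; 2.59% of all genes were) and 2 were lower (Fundc1 and Gabarapl2; 6.44% of all genes). The same 3 members had groups that did not overlap, which is read from the same arrays and is no separate support. Every KO array exceeded every WT array for 1 member (6.14% of all genes), and the reverse held for 2 (7.10%). With 10 members these counts are small. The median difference of all genes moved with level, from 0.032 below a level of 2 to -0.28 at levels of 4 to 6, so that the same value means different things for a dim and a bright member. After renewed quantile normalization those medians were -0.0047 and, at levels of 4 to 5 and 5 to 6, -0.047 and -0.059.

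**Figure D3:**
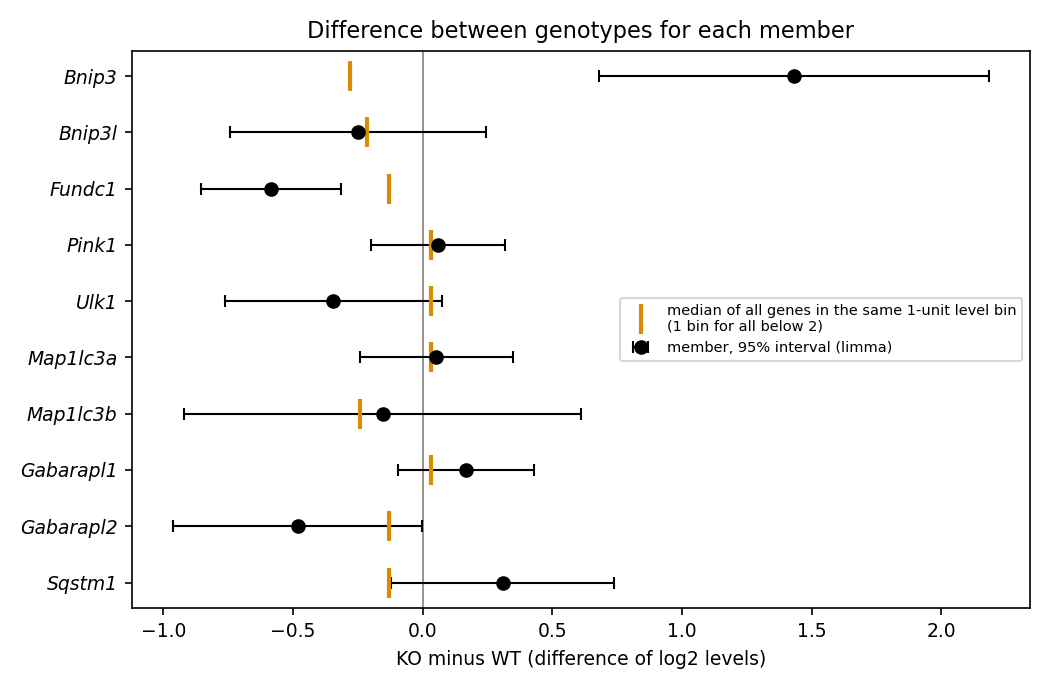
The plot gives the log2 difference of KO minus WT for each member (x axis, black points with limma's 95% interval, 3 arrays per group) beside the median of all genes of the same level (orange ticks). Bnip3 (+1.43) lies far above its tick at -0.28, Bnip3l (-0.25) lies at its tick of -0.22, and Fundc1 (-0.59) lies below its tick at -0.13.

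The rest of the pathway was given by 5 lists of 66 measured genes, none of which passed over all genes (limma). Their median difference was -0.15, with 18 positive and 48 negative, where all genes had 10284 positive and 9654 negative. At an unadjusted p under 0.05, 0 were higher (2.59% of all genes) and 7 were lower (6.44%). Groups did not overlap for 2 genes higher (6.14% of all genes) and 7 lower in KO (7.10%). The counts of lower genes are not far from those shares. Most of the 66 genes had a mean level below 2, where all genes had a median of 0.032 and 60.1% were higher. At levels of 2 to 3 all genes had a median of -0.13 and 28.3% were higher. Why most of the 66 differences were negative was not tested. A level below the array medians was found for 9 of the 66, and their values say little.

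Among 17 other mitophagy genes, the deubiquitinase gene Usp15 had the smallest p. It read 6.29, 6.08 and 5.91 in KO and 6.54, 7.12 and 6.91 in WT, a log2 difference of -0.76 (limma adjusted p = 0.243). Fundc2, the paralog of Fundc1, lay in the same direction, with 3.12, 3.11 and 2.80 in KO against 3.19, 3.66 and 3.72 in WT and a difference of -0.51 (adjusted p = 0.412). The adaptor gene Tax1bp1 had -0.40. The median of this list was -0.12, or -0.029 after renewed quantile normalization, and 2 of its 19 genes were not analysed here.

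The 8 genes of the ULK1 complex and the kinases that control it had a median of -0.19. Prkaa1, a catalytic subunit of the energy sensor AMPK, had -0.58 and Rb1cc1, the scaffold of the complex, -0.61, with wide and overlapping groups and unadjusted limma p of 0.0862 and 0.0876. Atg13 had -0.22. A list of 13 genes held the class III PI3-kinase complex and its regulators, Atg9a, Atg2a, Atg2b, Wipi1, Wipi2 and Wdr45. Its median was -0.15. Pik3c3, the catalytic subunit of the complex, had -0.32, Atg14 -0.23 and Nrbf2 -0.19, at mean levels of 1.92, 1.51 and 1.87. Of the 13 differences 12 were negative, while 60.1% of all genes below a level of 2 were higher in KO. Most of the 13 lay below that level, where a difference is hard to read.

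The list for ATG8 conjugation, 10 genes that process or attach ATG8 proteins and the ATG8 gene Gabarap, had a median of -0.16 (-0.15 without Gabarap). Atg4a, a protease that trims ATG8 proteins, read 3.21, 3.85 and 3.71 in KO and 4.06, 4.40 and 4.44 in WT, without overlap (-0.71, limma adjusted p = 0.317). Atg3, the conjugating enzyme, read 4.62, 4.13 and 4.54 against 5.01, 4.76 and 4.70, again without overlap (-0.39, adjusted p = 0.511). Atg16l1, part of the attachment complex, had -0.24 at a mean level of 1.56, near the floor.

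The 17 lysosomal and fusion genes had a median of -0.034, which turned to +0.012 after renewed quantile normalization. The small GTPase gene Rab7 (-0.48) and the protease gene Ctsb (-0.57) were lower on every KO array than on every WT array, with limma adjusted p of 0.470 and 0.476. For Ctsb the gap was very small, with 3.769 on KO replicate 2 and 3.775 on WT replicate 1. Vps18, a subunit of the tethering complexes for fusion, had +0.46 with overlapping groups, at a mean level of 1.63 near the floor.

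Bnip3 was next set beside other genes known to be induced by low oxygen. Like every list here, this one was chosen with earlier results of these data known. Its counts are therefore a description and not a test. Of 14 such genes, 8 had every KO array above every WT array (6.14% of all genes) and 0 the reverse (7.10%), with a median difference of +0.45. With limma, 0 passed over all genes and 8 had an unadjusted p under 0.05, all higher (2.59% of all genes). The differences of 3 were negative: Pdk1 had -0.18, Slc2a1 -0.19 and Adm -0.058, named after their values were seen. The angiogenic factor Vegfa had +0.84, the glycolytic genes Pgk1 and Aldoa +1.32 and +1.31, and the mitochondrial Higd1a +0.84. The mean level of the list was highest on KO replicate 2 (3.40), the array on which Bnip3 was highest too. KO replicate 2 was also the highest KO array for most other lists, among them the lysosomal and late erythroid genes. Among the other KO arrays the orders differed: the list read 3.03 and 3.22 on KO replicates 1 and 3, where Bnip3 read 5.63 and 5.31.

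Bnip3l was set beside late erythroid genes. Of the 11 measured, 10 had a negative difference, with a median of -0.37, and 4 had every KO array below every WT array (7.10% of all genes). At levels of 3 to 8, where most of these genes lay, all genes had medians of -0.28 to -0.22, with 17.2% to 21.2% higher. A negative difference is thus common at such levels. The exportin gene Xpo7 had -1.15, the membrane gene Epb42 -0.76, the heme synthesis gene Alas2 -0.63 and the Rh-complex gene Rhag -0.59, and none passed over all genes with limma, although 5 were lower at an unadjusted p under 0.05 (6.44% of all genes). The mean level of these genes was 4.26, 4.41 and 4.04 in KO and 4.44, 4.78 and 4.73 in WT. Their groups did not overlap, whereas those of Bnip3l did. On the KO arrays both were highest on replicate 2 and lowest on replicate 3, and on WT both were lowest on replicate 1. The lysosomal genes and the hepatocyte markers below had the same order, so it was not particular to erythroid genes. After renewed quantile normalization the late erythroid median was -0.18 and Bnip3l had -0.18.

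**Figure D4:**
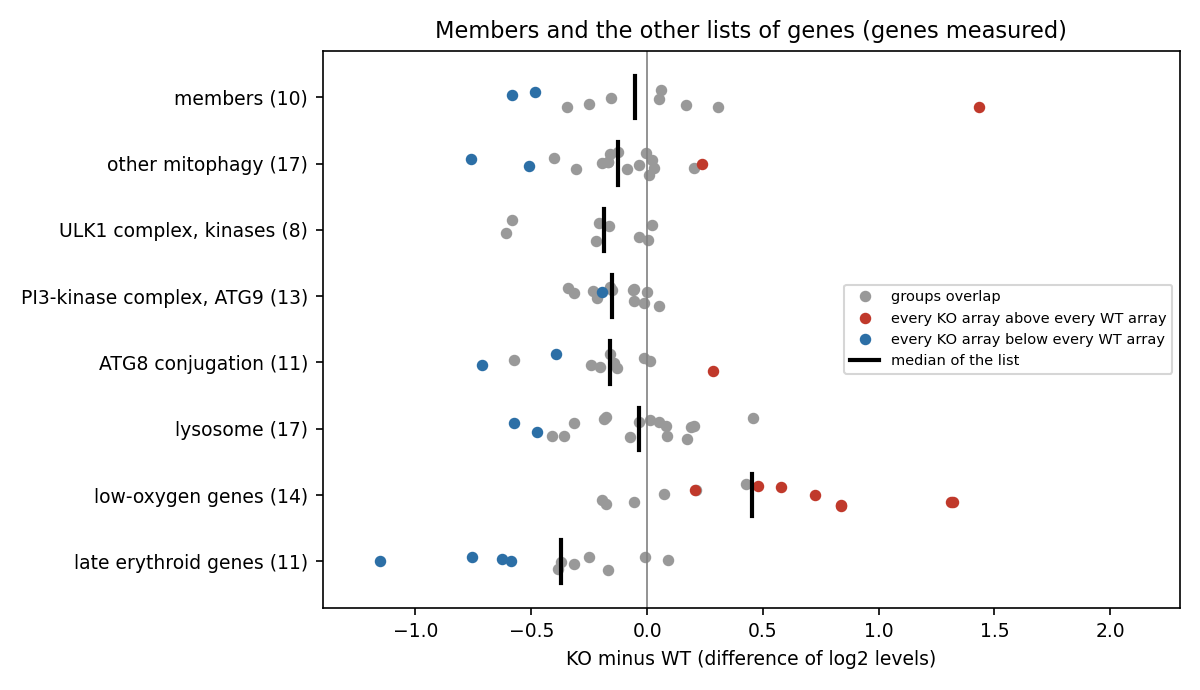
Each point is 1 gene, placed by its log2 difference of KO minus WT (x axis), in the members and 7 other lists (y axis, number measured in brackets), coloured by whether the 3 KO and 3 WT arrays overlap, with a black bar for the list median. The low-oxygen genes lie mostly above 0 (median 0.45), the late erythroid genes mostly below it (-0.37), and the members spread to both sides (-0.051).

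The genes with the profile nearest to each receptor over the 6 arrays were found among 2511 named genes with a mean of at least 3, by the root mean square difference of levels centred on each gene's own mean. For Bnip3, whose own values had a root mean square of 0.84 around their mean, these were Mt1 (0.30), Pgk1 (0.39), Ero1a (0.39) and Mt2 (0.40). The metallothionein gene Mt1 read 8.34, 8.94 and 7.90 in KO and 6.99, 7.59 and 7.43 in WT. For Bnip3l, with 0.30 of its own, they were Hars (0.060), Nup133 (0.074), Atp8a1 (0.082) and Aasdhppt (0.084), whose differences between genotypes lay between -0.31 and -0.17. Hars, a tRNA synthetase gene, read 5.40, 5.73 and 5.06 in KO and 5.24, 5.75 and 5.94 in WT.

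Cell type markers were also compared, and none of them passed over all genes (limma). Of 10 erythroid markers 9 were measured, all 9 with a negative difference and 6 of them also among the late erythroid genes above, and the sum of their log2 levels was 42.9 to 45.6 on the KO arrays and 46.6 to 49.8 on the WT arrays. Of 10 hepatocyte markers 9 were measured, 7 with a negative and 2 with a positive difference (Afp and Trf), and the sum was 53.9 to 62.3 in KO and 62.5 to 66.3 in WT. Their mean level was 6.87, 6.93 and 5.99 on the KO arrays and 6.94, 7.27 and 7.37 on the WT arrays. KO replicates 1 and 2 thus lay close to WT replicate 1, and KO replicate 3 lay well below. No measured marker of either list had a mean below the array medians. At levels of 3 or more, where most of both lists lay, 17.2% to 34.5% of all genes were higher in KO, depending on level. The 10 macrophage markers summed to 15.1 to 20.1 and 19.8 to 22.8, with overlapping groups and 3 markers below the array medians. The 10 endothelial markers summed to 18.2 to 19.8 and 17.1 to 18.2, with 4 below them. The 6 measured of 10 megakaryocyte markers summed to 20.7 to 22.4 and 22.8 to 23.5. Neutrophil (19.5 to 23.2 and 20.1 to 22.2) and mesenchymal markers (14.1 to 16.2 and 13.4 to 14.7), 8 each, overlapped. The part of these marker differences, or of the trend with level, in the values of Bnip3, Bnip3l, Fundc1 and the other members was not tested.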

How the data were processed

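Total RNA of 6 fetal livers was measured on MoGene 1.0 ST arrays. The authors deposited log2 values per probe set, which the submitters' processing notes credit to RMA, with no version. No source used here states the log base, and it was read as log2 from the range of the values. The upper ends of the distributions differ between arrays, so fold sizes are those of the deposited values. Of 28853 probe sets, 21789 had exactly 1 gene symbol in a platform annotation table, giving 19938 genes with the brightest probe set for each and no filter on dim genes. Groups were compared in R 4.3.3 with limma 3.58.1 (lmFit, eBayes, two-sided, no covariates), adjusted by Benjamini-Hochberg over all genes. The fit was also run on simulated data with known shifts and independent normal noise for each gene. That simulation held no trend with level and no effect of a whole array, so it cannot show how the fit behaves under them. The within-array difference was tested by exact permutation.

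The members and lists were chosen with earlier results of these data known. Named genes were every member, up to 3 genes with the smallest p of each pathway list, up to 4 of the low-oxygen and late erythroid lists, and the 4 nearest profiles. Alternatives were a replicate block, leaving out each array, other scalings, other probe set rules, a filter and a trend. The other probe set of a gene was added after seeing the data. Promoter windows are RefSeq's, on GRCm38.p6.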

Additional observations from a re-analysis of the deposited data

How the results depend on the processing

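The number of members that passed (limma) was 0 under all 13 alternatives run, and Bnip3 stayed positive (1.0 to 1.80, adjusted p 0.122 to 0.783). Bnip3l stayed negative (-0.44 to -0.059) and the Bnip3 minus Bnip3l difference positive (1.44 to 2.01, 11 alternatives, smallest possible exact p between 0.1 and 0.25). Leaving out 1 array gave 1.0 to 1.73 for Bnip3 and -0.65 to -0.48 for Fundc1. The count of genes that passed was 3 as reported, 6 after renewed quantile normalization, 0 with the replicate block, and 0 to 95 when 1 array was left out (95 without WT replicate 1, 1 without KO replicate 1, 0 without WT replicate 2). With the replicate block Bnip3 had an adjusted p of 0.331. Same-numbered arrays deviated together with correlations of 0.11, 0.057 and -0.11, and not every array correlated best with its own number. Over all probe sets, KO replicate 1 correlated with WT replicate 1 at 0.983 and with the other KO arrays at 0.981. Such values cannot show whether same-numbered arrays share a litter or batch, which was not tested. Signs turned for 4 members: when 1 array was left out, Pink1 ranged from -0.0068 to 0.12, Map1lc3a from -0.041 to 0.16 and Map1lc3b from -0.45 to 0.18. Map1lc3b was 0.072 after renewed quantile normalization, and Gabarapl2 was 0.14 with its less bright probe set. The cause was not tested. Pink1, Ulk1, Map1lc3a and Gabarapl1 lie too near the floor for a difference to be read. The same limit holds for named genes of the other lists below a level of 2.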
